A study of Penicillium oxalicum with 9 samples.

Results

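The transcripts described here are those of the wild type strain 114-2 of Penicillium oxalicum, a filamentous fungus that secretes enzymes able to break down plant cell walls. Of the 9 libraries in the series, the 3 labelled as wild type were used, called replicates 1 to 3, and all 9907 genes of the deposited table were described in them. The series as labelled compares this strain with deletion strains to find genes that depend on regulators of cellulase expression. No comparison between strains is made here. Per the labels, the spores were first grown for 22 h at 30 °C on 2% glucose. The mycelium was then moved and kept for 24 h in Mandel's medium, where 1% wheat bran and 1% cellulose were the carbon sources. The strain carries none of the deletions of the series. Nothing in the labels tells if each library had its own culture, so the spread between them may be technical.

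Cellulose is a chain of glucose that no cell can take up whole. Fungi of this kind secrete endoglucanases, which cut the chain inside, cellobiohydrolases, which release cellobiose from its ends, and copper monooxygenases, which break the crystalline surface by oxidation. Beta-glucosidases then split cellobiose to glucose, and cellodextrin transporters carry short chains into the cell. In filamentous fungi the activators ClrB and XlnR switch such genes on, and the carbon catabolite repressor CreA holds them down while glucose is present. Wheat bran adds starch, arabinoxylan and protein to the diet, which call for amylases, xylanases with their side-chain enzymes, and proteases.

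Levels are in FPKM as deposited, a measure that by its definition scales fragment counts to transcript length and to library size. How it was computed here is not given, and the labels describe short tags. A ranking of genes or a share of the pool may therefore be off. FPKM summed to between 776855 and 795456 per library, and a share of the pool below means the percent of that sum. Between 9702 and 9724 genes had a value above 0 in a library, and the median gene stood between 22.6 and 23.2 FPKM. The number of reads behind each value is unknown. Gene descriptions come from the deposited table (the best match in the NCBI nr database, KEGG orthology and Gene Ontology, GO). They are automated labels, and 830 genes carried several KEGG entries at once. In bulk RNA, fewer cells of a state and less RNA per cell cannot be told apart.

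The genes that the wild type should still hold were looked up, which is only a weak check of the labelled genotype. The gene described as ClrB, PDE_05999, was read at 191, 200 and 163 FPKM in replicates 1, 2 and 3. Of the 2 genes described as TUP1, the corepressor family of RcoA, PDE_01024 was read at 67.3, 65.5 and 70.7 FPKM and PDE_07598 at 4.12, 5.52 and 4.89. All were above 0 in every library, as were 9599 genes or 96.9% of the table. A value above 0 therefore cannot tell the wild type from another strain here.

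The transcript pool was concentrated in few genes. The highest 10 genes held 13.1% ± 0.10 (SD, n = 3 libraries) of summed FPKM, the highest 100 held 37.1% ± 0.069 and the highest 1000 held 68.5% ± 0.38. It took 275 genes, 2.78% of the genome's table, to reach 50% of the pool, and 3741 genes to reach 90%. At the other end, 859 genes had a mean below 1 FPKM, and together they held 0.0394% of the pool. The 103 genes with a mean of at least 1000 FPKM held 37.4% ± 0.071, beside 19.7% ± 0.19 for the 2896 genes between 30 and 100 FPKM.

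**Figure D1:**
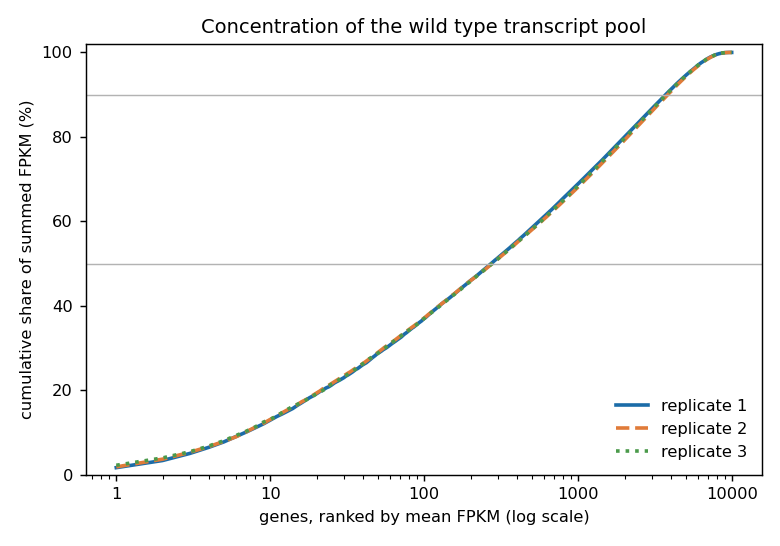
Cumulative share of summed FPKM (vertical axis, percent) over genes ranked by mean FPKM (horizontal axis, log scale), 1 line per wild type library, with grey lines at 50% and 90%. The 3 lines lie almost on each other and cross 50% near gene 275 and 90% near gene 3741.

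The gene with the highest mean, PDE_09832, was read at 13477, 14506 and 17772 FPKM and held 1.94% ± 0.28 of the pool. It carries only the GO labels for cell wall and structural molecule activity. Replicate 3 was its highest library, above the other 2 by more than these differed from each other. The second, PDE_09166, stood at 13446, 14255 and 13794 FPKM, with replicates close together. Its KEGG label is N6-L-threonylcarbamoyladenine synthase, an enzyme family that modifies transfer RNA.

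The next places went to genes without any description. PDE_00509 was read at 13275, 12540 and 11417 FPKM, PDE_07911 at 11658, 10714 and 10887, and PDE_01252 at 10175, 9459 and 9969. PDE_05881 followed at 10192, 8526 and 9628 FPKM and PDE_06391 at 8480, 9233 and 8119. Ranges of neighbours in this order overlapped: of the 29 neighbouring pairs among the highest 30 genes, 3 had ranges over the libraries that did not overlap.

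PDE_05655, whose GO labels are spore-bearing organ development and cytolysis of host cells, stood at 7981, 8507 and 7997 FPKM. Secreted enzymes followed. PDE_07927, described as aspergillopepsin I, an acid protease that fungi secrete, was read at 7030, 6725 and 8721 FPKM. PDE_07945, a cellobiohydrolase, was read at 7355, 7377 and 5499. In replicate 3 the protease was at its highest and the cellobiohydrolase at its lowest.

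Among the remaining 20 of the highest 30 genes, 12 had no description. They ran from PDE_00508 (6585, 6354 and 5808 FPKM), PDE_07202 (5210, 6217 and 7188) and PDE_02267 (5112, 5474 and 5807) down to PDE_06715 (2284, 2753 and 3124). PDE_00621, at 4923, 4990 and 5030 FPKM, was the steadiest of them, and PDE_07106, at 5916, 4354 and 4030, among the least steady. The undescribed genes between these were PDE_04101 (4917, 3733 and 4208 FPKM), PDE_05075 (3535, 4093 and 4165), PDE_02650 (3962, 3681 and 3586), PDE_05882 (3004, 4224 and 3646), PDE_00897 (3245, 3195 and 3160) and PDE_06800 (2729, 2992 and 2992). Of the described genes, PDE_09761, labelled 4-hydroxyphenylpyruvate dioxygenase, which acts in the breakdown of tyrosine, was read at 4959, 5087 and 3815 FPKM. PDE_07454, described as glutathione synthase, was read at 2688, 2486 and 2791. The others with a description belong to groups given below.

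**Figure D2:**
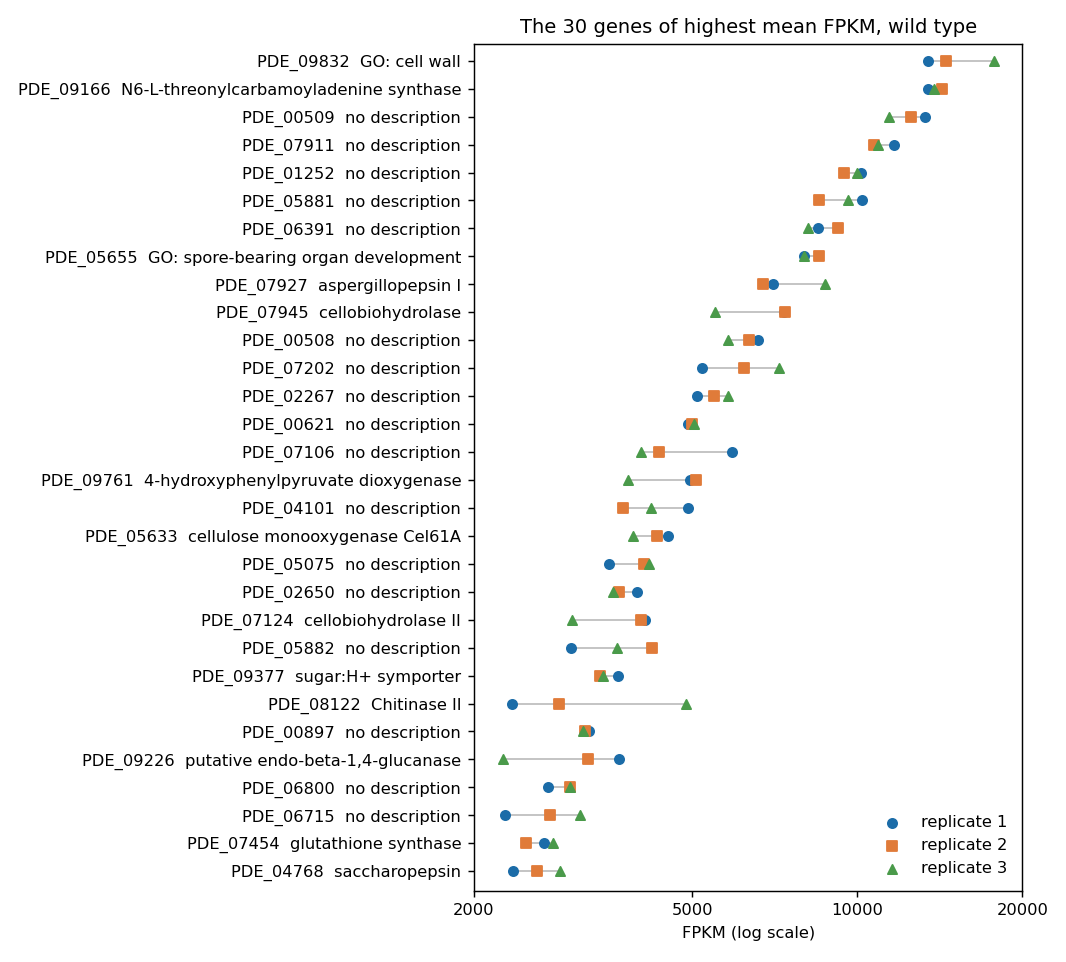
FPKM (log scale) in each of the 3 wild type libraries for the 30 genes of highest mean FPKM, ordered by the mean, with the deposited description beside the identifier; a grey line joins the lowest and the highest library. Most ranges overlap those of the neighbouring genes, 17 of the 30 genes have no description, and the chitinase PDE_08122 spans the widest range.

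Undescribed genes were frequent at both ends of the scale. Genes with no functional Nr description, no KEGG entry and no GO term numbered 3687 of 9907, or 37.2%, and held 39.3% ± 0.23 of the pool. Among the 2896 genes between 30 and 100 FPKM, 28.7% were of this kind. The share was 45.6% among the 103 genes of at least 1000 FPKM and 78.4% among the genes listed at 0 in all libraries. The median undescribed gene stood at 15.2 FPKM, and the median gene with some description at 27.3. Genes with a GO term, 3706 in number, held 41.8% ± 0.41 of the pool, and those with a KEGG entry, 5735 in number, 52.8% ± 0.51.

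The described genes were grouped in 38 lists by words in their descriptions. The lists held 1560 genes and 24.8% ± 0.72 of the pool, and 24 genes belonged to more than 1 list. The list of cellulose hydrolysis, with 11 genes or 0.111% of the table, had the highest mean share, 2.47% ± 0.47, beside 2.32% ± 0.28 for the 87 cytosolic ribosomal proteins. The order of these lists depended on the library: cellulose hydrolysis was above in replicates 1 and 2 and below in replicate 3. With KEGG entries alone, the means were 2.21% for cellulose hydrolysis and 2.32% for ribosomal proteins. Of the 37 neighbouring pairs in the order of lists, 14 stood in the same order in all 3 libraries.

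**Figure D3:**
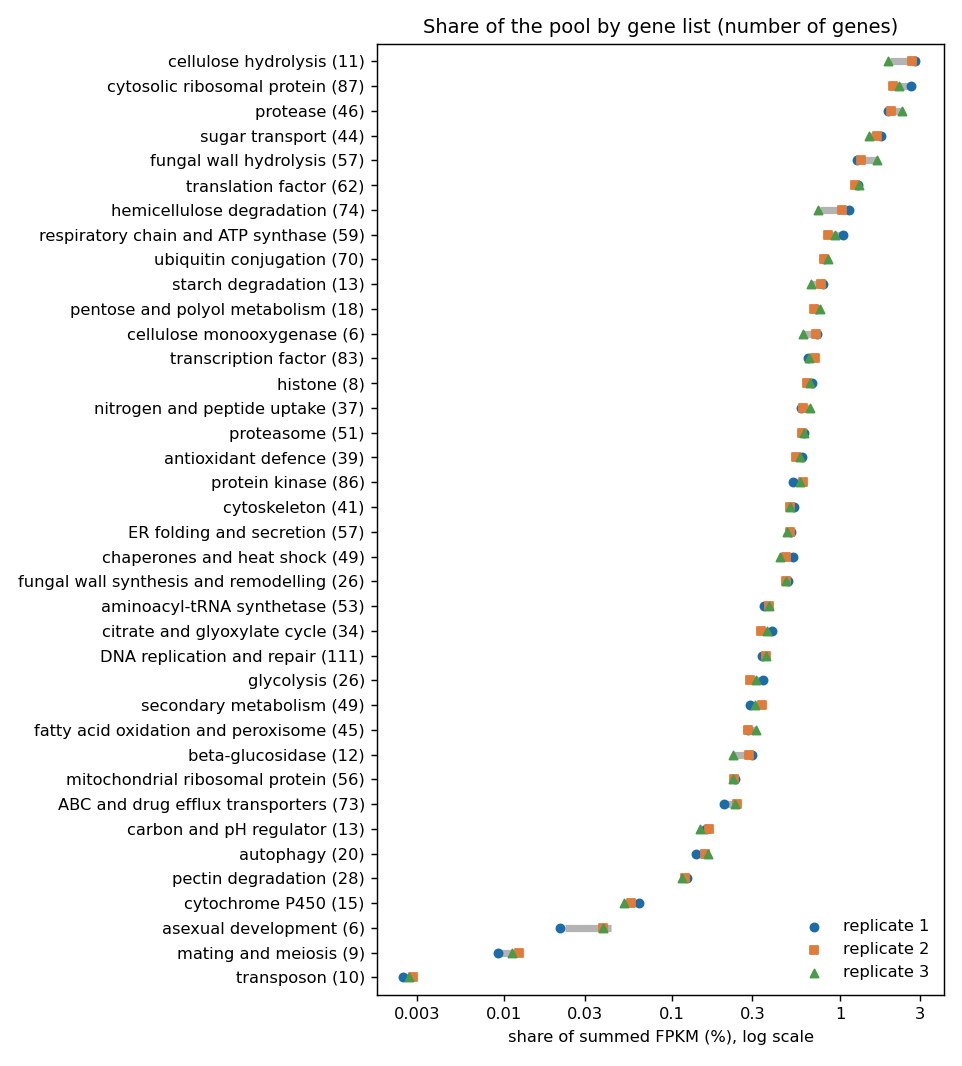
Share of summed FPKM (percent, log scale) held by each of 38 gene lists in the 3 wild type libraries, ordered by the mean, with the number of genes in brackets; grey bars are the mean ± SD. Cellulose hydrolysis, with 11 genes, and cytosolic ribosomal proteins, with 87, lie highest at 2.47% and 2.32%, and transposon genes lowest at 0.00269%.

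Every one of the 11 genes for cellulose hydrolysis was above 0, and 6 of them had a mean of at least 1000 FPKM. Beside the cellobiohydrolase PDE_07945 these included PDE_07124, described as cellobiohydrolase II, at 4100, 4030 and 3015 FPKM. The endoglucanase PDE_09226 was read at 3675, 3233 and 2263 FPKM, PDE_07929, described as Cel7B, at 2661, 2193 and 1351, the family 45 glycoside hydrolase PDE_07928 at 2378, 2082 and 1621, and PDE_09969, described as Cel5C, at 1292, 1284 and 983. The remaining 5 genes lay lower, from PDE_00507, described as endoglucanase II, at 580, 587 and 366 FPKM, to PDE_05193, at 8.92, 6.15 and 4.44. All 11 had their lowest value in replicate 3.

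The genes kept some of their ratios while their levels moved. The ratio of FPKM of PDE_07945 to PDE_07124 was 1.79, 1.83 and 1.82 in replicates 1, 2 and 3, a coefficient of variation (CV, SD divided by mean) of 1.07%. Its ratio to Cel5C was 5.69, 5.74 and 5.59, with a CV of 1.34%. These were the steadiest ratios computed. Those to PDE_07928, PDE_09226 and PDE_00507 had CVs of 6.86%, 9.73% and 10.3%. The ratio to Cel7B was 2.76, 3.36 and 4.07, with a CV of 19.2%, so Cel7B was lower in replicate 3 than the cellobiohydrolases were.

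In the list of oxidative cellulose breakdown, PDE_05633, described as the cellulose monooxygenase Cel61A, was read at 4514, 4322 and 3896 FPKM and made up 79.2% of the 6 members' sum. The monooxygenase PDE_01261 followed at 1151, 1121 and 713 FPKM and PDE_00698 at 94.8, 81.4 and 76.4. Both genes described as cellobiose dehydrogenase, which donates electrons to such monooxygenases, were low, PDE_09454 at 13.2, 14.1 and 12.5 FPKM and PDE_09177 at 10.1, 10.7 and 10.1. The list held 0.681% ± 0.072 of the pool.

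The 12 genes of the beta-glucosidase list held 0.272% ± 0.037. The highest was PDE_00579, a family 1 glycoside hydrolase, at 1203, 1004 and 767 FPKM. PDE_02736, described as beta-glucosidase I, was read at 580, 661 and 607 FPKM, with replicate 3 between the other 2, and PDE_04251 at 215, 202 and 121.

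Hemicellulose degradation was spread over more genes, 74 in all, of which 4 had a mean below 1 FPKM and 2 a mean of at least 1000. The list held 0.967% ± 0.21 of the pool, and 27 genes were needed for 90% of its sum, against 5 for cellulose hydrolysis. The family 10 xylanase PDE_08094 was read at 2368, 2199 and 1344 FPKM. PDE_06649, a putative feruloyl esterase, which frees ferulic acid from arabinoxylan, was read at 1635, 1402 and 968, and PDE_02101, described as xylanase B, at 635, 508 and 433. Replicate 3 was lowest for each of them.

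Pectin enzymes were a smaller group. The 28 genes held 0.118% ± 0.0041 of the pool and none reached a mean of 1000 FPKM. The putative endopolygalacturonase PDE_04162 was read at 121, 119 and 92.7 FPKM and the putative rhamnogalacturonan acetylesterase PDE_02093 at 103, 84.8 and 64.0. PDE_09285, a putative rhamnogalacturonan alpha-L-rhamnopyranohydrolase, went the other way between libraries, at 50.4, 95.6 and 232 FPKM.

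Starch degradation, with 13 genes, held 0.744% ± 0.060. The glucoamylase PDE_09417, described as Amy15A, an enzyme that frees glucose from the ends of starch chains, was read at 1845, 1716 and 1475 FPKM. The alpha-amylase PDE_01201 was read at 1391, 1547 and 1278, and PDE_01354, with starch binding and chitin binding domains, at 1172, 1058 and 826. The 6 lists for cellulose, monooxygenases, beta-glucosidase, hemicellulose, pectin and starch together held 144 genes and 5.86%, 5.61% and 4.28% of the pool in replicates 1, 2 and 3.

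Sugar transporters, 44 genes in all, held 1.63% ± 0.13, and 5 of them had a mean of at least 1000 FPKM. PDE_09377, a proton symporter of the SP family, was read at 3667, 3399 and 3444 FPKM. The cellodextrin transporter described as cdt-c, PDE_00607, was read at 3106, 2694 and 2010, and the putative cellodextrin transporter CdtD, PDE_00753, at 1264, 1066 and 791. Both cellodextrin transporters were lowest in replicate 3, whereas the SP symporter PDE_03313, at 2016, 1932 and 2092 FPKM, was highest there. In the 18 genes of pentose and polyol metabolism, D-arabinitol 2-dehydrogenase PDE_05532 was read at 1414, 1878 and 1699 FPKM, sorbose reductase PDE_06586 at 1561, 1238 and 1873, and mannitol-1-phosphate dehydrogenase PDE_03821 at 1623, 1370 and 1548. D-xylose reductase PDE_02929, the first step of xylose use, was lower at 375, 279 and 223.

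The regulators of these enzymes stood below the highest enzyme genes in FPKM but not below most of them. The median of the 13 regulators was 67.8 FPKM, beside 23.7 for hemicellulose, 25.9 for beta-glucosidase and 25.6 for pectin genes, and 1186 for cellulose hydrolysis. The 13 genes of the list of carbon and pH regulators held 0.157% ± 0.0096 of the pool, and all were above 1 FPKM. PDE_03168, described as the carbon catabolite repressor, was read at 352, 350 and 303 FPKM. Genes with the KEGG label CreA/MIG alone were PDE_03425, at 202, 210 and 183, PDE_08462, at 54.7, 65.9 and 64.2, and PDE_08282, at 5.52, 6.43 and 4.60. PacC, PDE_05163, the regulator of the response to external pH, was read at 131, 130 and 116, and XlnR, PDE_07674, at 74.0, 73.9 and 59.1. ClrB, XlnR, PacC and the repressor PDE_03168 had their lowest value in replicate 3. Over the 13 genes, 6 were lowest and 5 highest in replicate 3, beside 31.7% and 29.7% of all genes. The median log2 difference of replicate 3 from replicate 1 was 0.04 for the 13 genes.

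Among the 83 genes of the transcription factor list, the median was 24.4 FPKM, beside 23.1 for all genes. PDE_04982, with the KEGG label of UGA3, a yeast activator of GABA use, was read at 536, 653 and 726 FPKM, and PDE_05453, with the label of the yeast regulator UME6, at 643, 667 and 575. PDE_01436, described as HAC1, the yeast factor that drives the response to unfolded protein in the endoplasmic reticulum, was read at 366, 332 and 252. The list of folding and secretion held 0.498% ± 0.016 in 57 genes, with the putative protein disulfide-isomerase PDE_06215 on top at 399, 321 and 331 FPKM. Of chaperones, 49 genes with 0.481% ± 0.043, the small heat shock protein PDE_02095 took 33.8%, at 1606, 1208 and 1031 FPKM.

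Proteases, 46 genes, held 2.09% ± 0.21 of the pool, and aspergillopepsin PDE_07927 made up 45.6% of that sum. PDE_04768, with the label of saccharopepsin, the yeast vacuolar protease, was read at 2355, 2609 and 2869 FPKM. The vacuolar serine protease PDE_09396 was read at 1669, 1706 and 1973, and PDE_07936, described as deuterolysin, a secreted metalloprotease, at 1321, 1425 and 1558. These 3 and aspergillopepsin were highest in replicate 3. Of the 37 genes for nitrogen and peptide uptake, the oligopeptide transporter PDE_05534 was read at 1521, 1563 and 1850 FPKM and the amino acid transporter PDE_01802 at 746, 938 and 1135. Replicate 3 was the highest for both, but not for most of the uptake list. Of its 34 genes with a mean of at least 1 FPKM, 10 were highest and 9 lowest there. Over all genes these shares were 29.7% and 31.7%.

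The list of fungal wall hydrolysis, 57 genes with labels of chitinases and glucanases, held 1.42% ± 0.21. It is named for enzymes that can act on fungal walls, and their substrates in this culture were not tested. The chitinase PDE_08122 was read at 2349, 2857 and 4864 FPKM, with replicate 3 far above the others, and made up 30.0% of the sum. PDE_03292, with a chitin binding domain and the KEGG label of an endo-1,3-alpha-glucosidase of glucan, was read at 2373, 2040 and 2190, and the chitinase PDE_06419 at 959, 962 and 1039. Wall synthesis and remodelling, 26 genes, held 0.479% ± 0.0081, and 4 of its members were below 1 FPKM. Its highest gene was the putative beta-1,3-glucanosyltransferase PDE_06441, at 933, 766 and 771 FPKM.

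Among lists of the translation machinery, the ribosomal proteins filled their share evenly and the others less so. The median cytosolic ribosomal protein gene stood at 194 FPKM, beside 23.1 for all genes, and 61 of the 87 genes were needed for 90% of the list's sum. The highest was PDE_04897, described as S27Ae, at 933, 773 and 791 FPKM. Elongation factor 1-alpha was the description of PDE_02596, at 2575, 2046 and 2254, and PDE_09012, at 1679, 2118 and 2629; the former was highest in replicate 1 and the latter in replicate 3. The 3 genes with that description made up 44.9% of the translation factor list, which had 62 genes and 1.27% ± 0.040 of the pool. The 56 mitochondrial ribosomal protein genes held 0.234% ± 0.0029, and the 53 genes with labels of aminoacyl-tRNA synthetases 0.370% ± 0.014. Of the latter, PDE_05986, labelled as isoleucyl-tRNA synthetase, took 35.2%, at 914, 1079 and 1079 FPKM. That label is from KEGG alone, and PDE_05987 and PDE_05988 carry it too. The GO term aminoacyl-tRNA ligase activity held 0.194% ± 0.0028 in 35 genes. Its highest gene was PDE_05389, so PDE_05986 was not in it. The 4 translation lists together held 258 genes and 4.51%, 3.92% and 4.17% of the pool in replicates 1, 2 and 3. That was below the plant polysaccharide lists in 3 of 3 libraries, by 1.05 ± 0.83 percentage points. The order depended on how genes were assigned: with KEGG entries alone on both sides the plant lists held 3.96% ± 0.67 and translation 4.16% ± 0.30, and the plant lists were higher in 1 of 3 libraries. Without the cellobiohydrolase PDE_07945 the difference was 0.196 ± 0.70 points. An exact two-sided sign-flip test over 3 libraries cannot go below p = 0.25, so none was run.

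In energy metabolism, the 59 genes of the respiratory chain and ATP synthase held 0.940% ± 0.095, with subunit d of the ATP synthase, PDE_03510, highest at 614, 409 and 530 FPKM. Glycolysis held 0.318% ± 0.027 in 26 genes. Glyceraldehyde 3-phosphate dehydrogenase, PDE_09952, stood at 1061, 796 and 865 FPKM and made up 36.3% of it. The 34 genes of the citrate and glyoxylate cycle held 0.365% ± 0.027, and the 45 genes of fatty acid oxidation and the peroxisome 0.294% ± 0.018. Fructose-bisphosphate aldolase, PDE_04802, was read at 337, 275 and 309 FPKM and enolase, PDE_02546, at 210, 166 and 190. Malate dehydrogenase, PDE_01008, was read at 263, 226 and 247, and acyl-CoA dehydrogenase, PDE_05566, which opens the oxidation of fatty acids, at 260, 311 and 421. In the lists of respiration, glycolysis and the citrate cycle, replicate 1 had the highest share and replicate 2 the lowest. In fatty acid oxidation replicate 3 was the highest.

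Few genes carried the histone list, 8 with 0.660% ± 0.022. Histone H3, PDE_00233, was read at 1536, 1286 and 1365 FPKM, H4.1, PDE_00232, at 1141, 1107 and 1167, H2A, PDE_01490, at 1129, 1017 and 1116, and H2B, PDE_01489, at 1087, 1023 and 1055. Polyubiquitin, PDE_03961, stood at 2100, 1909 and 2292 FPKM in the ubiquitin list, and catalase-peroxidase, PDE_07249, at 873, 754 and 812 among antioxidant genes. The cytoskeleton list, 41 genes with 0.514% ± 0.017, was led by cofilin, PDE_05714, which severs actin filaments, at 661, 634 and 567 FPKM, before tubulin alpha, PDE_04579, at 463, 404 and 440. Protein kinases, 86 genes with 0.567% ± 0.036, were led by PDE_04731, labelled as the checkpoint kinase Chk2, at 380, 542 and 457. The 51 proteasome genes had a median of 106 FPKM and the smallest relative spread of share after the mitochondrial ribosome, 0.601% ± 0.0093.

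Genes of asexual development had a median of 14.95 FPKM and genes of mating and meiosis 1.52, beside 23.1 for all genes. The 6 genes of asexual development held 0.033% ± 0.010 of the pool and the 9 genes of mating and meiosis 0.0108% ± 0.0015. FlbD, PDE_03008, a regulator that acts early in conidiation in Aspergillus, was read at 109, 207 and 220 FPKM. Of the 2 genes described as BrlA, the central activator of conidiation, PDE_00087 was read at 18.2, 27.9 and 28.5 and PDE_00079 at 1.57, 0.47 and 0.93. Scytalone dehydratase, an enzyme of spore pigment, was the label of PDE_04496, at 36.5, 56.2 and 43.4, and PDE_09236, at 2.79, 6.92 and 5.42. Replicate 1 was the lowest for all of these but PDE_00079. Other conidiation names sought, AbaA, WetA, FlbC and hydrophobin, were in no description. FlbD, PDE_04496 and PDE_00087 had means above the median of all genes, and PDE_05655, given above with its label of spore-bearing organ development, was among the 10 highest genes.

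Meiotic genes were low. SPO11, PDE_09560, which cuts DNA to start meiotic recombination, was read at 2.42, 2.11 and 1.69, DMC1, PDE_05865, at 1.22, 1.62 and 1.73, REC8, PDE_03457, at 0.60, 0.74 and 0.80, and NDT80, PDE_03754, at 3.31, 2.86 and 4.38. The kinase labelled IME2, PDE_08698, stood higher at 52.3, 74.7 and 66.3 and made up 75.9% of the list. The names HOP1, IME4, NsdD, SteA, mating type and, for autophagy, ATG8 were in no description. The autophagy list had 20 genes, none below 1 FPKM, with a median of 38.6 FPKM beside 23.1 for all genes. It held 0.138%, 0.157% and 0.163% of the pool in replicates 1, 2 and 3, and 8 of its genes were highest and 4 lowest in replicate 3. As markers of autolysis, the 24 genes described as chitinase summed to 4837, 5296 and 7287 FPKM, and deuterolysin is given above. The rise of that sum in replicate 3 was that of PDE_08122: the other 23 genes summed to 2488, 2439 and 2423 FPKM, with a median of 15.7, below that of all genes. Their part in the other results was not tested. Of the 10 genes with transposon descriptions, 7 had a mean below 1 FPKM, and the putative reverse transcriptase PDE_03985, at 15.6, 18.8 and 17.6, made up 82.0% of the list.

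The list of secondary metabolism, 49 genes, had a median of 7.62 FPKM, and 9 members were below 1. PDE_06327, labelled as averantin hydroxylase, a cytochrome P450, was its highest gene, at 566, 618 and 530 FPKM. The 73 genes of ABC and drug efflux transporters had a median of 9.55 FPKM, 14 of them below 1. PDE_01793, a multidrug transporter of the DHA1 family, was highest in it, at 222, 264 and 331.

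By GO term, 151 terms with at least 10 genes were summed, and terms overlap. The highest share went to the broad term single-organism metabolic process, 3.65% ± 0.059 in 302 genes. Structural molecule activity held 3.55% ± 0.25 in 78 genes, of which PDE_09832 alone gave 54.5%. Hydrolysis of O-glycosyl compounds, a term for enzymes that cut glycosidic bonds, held 2.29% ± 0.37 in 42 genes, with 37.4% of it from the cellobiohydrolase PDE_07945. Peptidase activity held 1.05% ± 0.13 in 18 genes, and 90.5% of that was aspergillopepsin PDE_07927.

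Few genes were without signal. In all 3 libraries, 88 genes, 0.888% of the table, were listed at 0; a further 88 were at 0 in 2 libraries, 132 in 1, and 9599 in none. A 0 does not fix a level: among genes at 0 in 1 library, the highest value in another was 2.63 FPKM. Genes below 1 FPKM in all 3 libraries numbered 720, or 7.27%. Of the 88 genes at 0, 69 had no description of any kind, and the 8 that stood beside another such gene by identifier formed 4 pairs.

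The 19 described genes listed at 0 shared no single function. PDE_02410 is labelled as the fungal nitric oxide reductase, an enzyme of denitrification, and PDE_04440 as the trans-acting enoyl reductase of aspyridone synthesis. PDE_05937 and PDE_07362 are labelled as multidrug transporters of the DHA1 family, and PDE_08031 as a further major facilitator. PDE_04394 is a putative beta-glucan hydrolase and PDE_06043 a putative ricin B-related lectin. Labels of housekeeping functions were also present. They comprised PDE_06695 (ribosomal protein S30e), PDE_03303 (cysteinyl-tRNA synthetase), PDE_03695 (acetolactate synthase), PDE_07117 (ribosome assembly protein 4), PDE_01776 (an RNA helicase) and PDE_04190 (a mitochondrial splicing suppressor). For S30e a second gene with that label, PDE_04423, was read at 274, 260 and 242 FPKM. The others were PDE_03751 and PDE_09097 with kinase labels, PDE_05813 and PDE_06851 with DNA binding labels, and PDE_03413 and PDE_06410 with several unlike labels each.

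By list, 2 of 73 efflux transporters, 2 of 53 aminoacyl-tRNA synthetases, 2 of 86 protein kinases, 1 of 49 genes of secondary metabolism and 1 of 87 cytosolic ribosomal proteins were at 0, beside 0.888% of all genes. PDE_09097 counts in both the kinase and the synthetase list. The other 33 lists had no member at 0. Genes without any description were at 0 in 1.87% of cases and those with a description in 0.305%.

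The 3 libraries lay close to each other. Over the 9048 genes with a mean of at least 1 FPKM, the median SD of log2(FPKM + 1) was 0.135. Pearson's correlation across these genes, which are not independent replicates, was 0.987 between replicates 1 and 2, 0.984 between 1 and 3 and 0.991 between 2 and 3. The number of genes that differed more than 2-fold in FPKM + 1 was 81, 135 and 43 in the same order, or 0.895%, 1.49% and 0.475%. The added 1 shrinks ratios of low values, so some genes that differed more than 2-fold in FPKM are not counted. Replicate 1 was the most distant by all these measures. It was the lowest library for 37.8% of genes and the highest for 37.8%, beside 31.7% and 29.7% for replicate 3.

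Spread was widest at low levels. The median CV was 48.3% for the 771 genes above 0 and below 1 FPKM and 21.2% between 1 and 3. It was 8.40% between 30 and 100 and 10.5% at 1000 or more. On the log scale, the median SD of log2(FPKM + 1) was 0.196 for genes between 1 and 3 FPKM, fell to 0.119 between 30 and 100 FPKM, and was 0.148 for the 103 genes of at least 1000 FPKM. The 90th percentile ran from 0.275 to 0.461 over the same levels. The median CV was 9.04% over the 7050 genes with a mean of at least 10 FPKM, and 3933 of them had a CV below 10%.

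**Figure D4:**
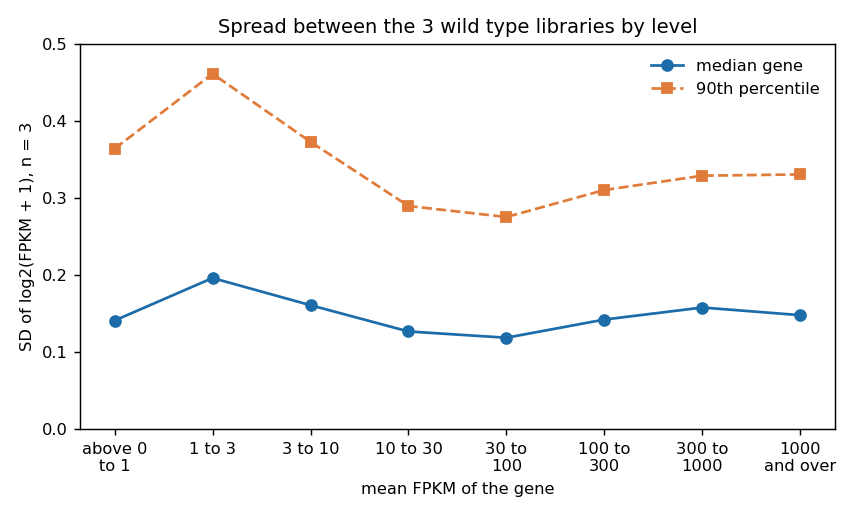
SD over 3 wild type libraries of log2(FPKM + 1) (vertical axis) for genes grouped by mean FPKM (horizontal axis), as the median gene (circles) and the 90th percentile (squares). The median lies between 0.119 and 0.196 at every level, and both lines are lowest between 30 and 100 FPKM. Below 1 FPKM the added 1 narrows this SD, and the median CV of those 771 genes was 48.3%.

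The most variable genes were mostly high in replicate 3. Of the 10 genes with the highest CV among those with a mean of at least 10 FPKM, 9 were highest there, and so were 53 of the first 100, beside 31.01% of all 7050. PDE_03182, labelled as salicylate synthetase, was read at 26.1, 39.96 and 164 FPKM, a CV of 98.99%. PDE_06621, labelled as an alpha-1,3-glucanase, was read at 3.66, 8.92 and 29.7, the putative beta-1,3-glucanase PDE_05515 at 74.1, 142 and 352, and the putative exo-beta-1,3-glucanase PDE_08139 at 136, 235 and 560. These 3 genes belong to the list of fungal wall hydrolysis, and in them replicate 3 exceeded replicate 1 by 4.12-fold to 8.11-fold. The pectin enzyme PDE_09285 is given above, and the putative alpha-mannosidase PDE_07234 was read at 36.2, 69.9 and 160.

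The other members of this group were PDE_01194, a glutathione S-transferase, at 17.0, 13.3 and 64.1 FPKM, PDE_01275, with labels of adenylosuccinate synthase and peroxin-3, at 5.79, 7.34 and 24.5, and the undescribed PDE_04068, at 5.50, 14.6 and 28.0. One gene went the other way: PDE_01229, with no description, was read at 127, 72.5 and 14.5 FPKM, an 8.76-fold range with replicate 3 lowest.

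Whole lists also differed between libraries, and not always in the direction of these genes. The differences are given as counts beside the same over all genes. All 11 genes of cellulose hydrolysis were lowest in replicate 3, as were 47 of 70 tested genes (mean of at least 1 FPKM) of hemicellulose degradation and 16 of 25 of pectin degradation, beside 31.7% of all genes. The median log2 difference of replicate 3 from replicate 1 was -0.55 for cellulose hydrolysis, -0.31 for hemicellulose and -0.35 for pectin, beside 0.00 for all genes. Proteases were highest in replicate 3 in 19 of 44 cases and fungal wall hydrolysis in 22 of 52, beside 29.7% of all genes. The medians of these 2 lists were 0.09 and 0.07 higher in replicate 3 than in replicate 1, less than the differences of their highest members, PDE_07927 and PDE_08122, given above.

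Cytosolic ribosomal and respiratory genes had another order of libraries. Of 85 tested cytosolic ribosomal protein genes, 79 were highest in replicate 1 and 69 lowest in replicate 2, beside 37.8% and 30.2% of all genes. Of 58 genes of the respiratory chain, 47 were highest in replicate 1 and 43 lowest in replicate 2. Other lists of translation lay nearer to all genes, with 24 of 55 mitochondrial ribosomal proteins, 29 of 61 translation factors and 23 of 48 aminoacyl-tRNA synthetases highest in replicate 1. Of 80 protein kinase genes, 55 were lowest in replicate 1, beside 37.8% of all genes, as were 60 of 111 genes of DNA replication and repair and 25 of 40 of secondary metabolism. The median log2 difference of replicate 2 from replicate 1 was -0.37 for cytosolic ribosomal proteins and 0.13 for protein kinases. With libraries scaled to equal medians, to equal sums or by trimmed mean factors, the counts of the cellulose list in replicate 3 and of ribosomal proteins highest in replicate 1 were 11 and 79 each time. With 3 libraries of 1 group, none of these differences was tested.

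**Figure D5:**
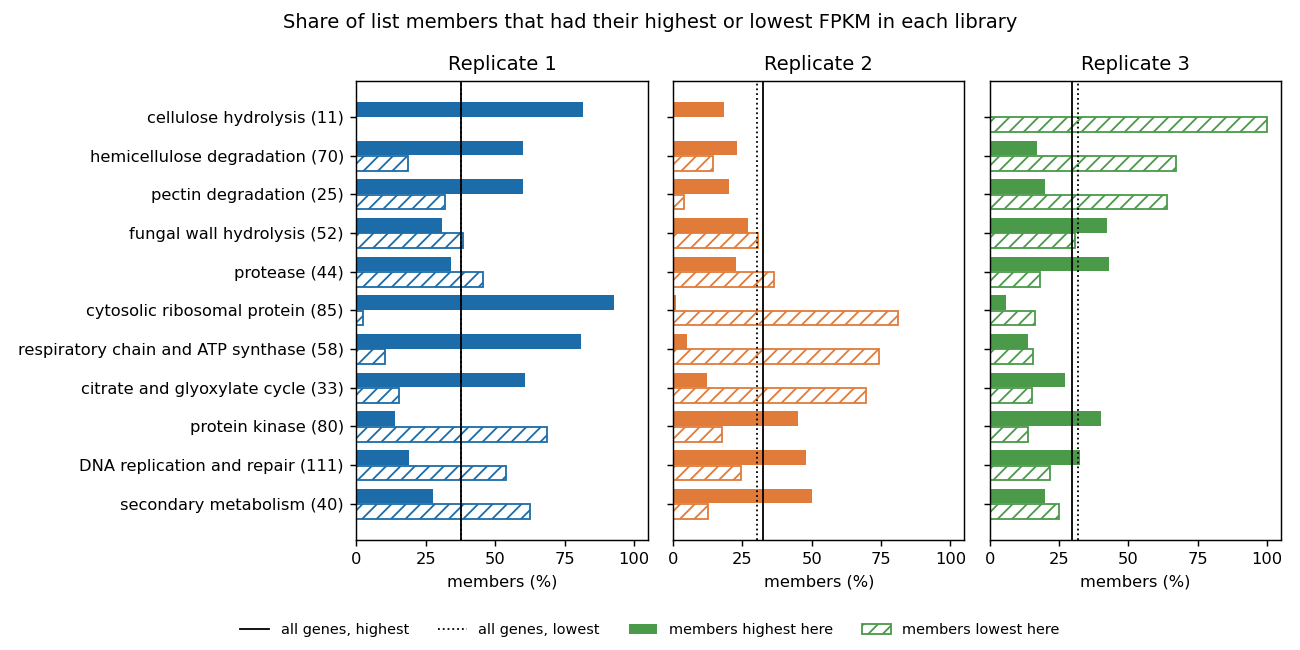
Share of list members (percent, horizontal axis) that had their highest (filled bars) or lowest (hatched bars) FPKM in each wild type library, 1 panel per library, for 11 lists with the number of genes of at least 1 FPKM in brackets; vertical lines give the same over all 9048 genes (solid for highest, dotted for lowest). Cellulose hydrolysis genes were lowest in replicate 3 in 11 of 11 cases, and ribosomal protein genes were highest in replicate 1 in 79 of 85.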

How the data were processed

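The values were FPKM per gene, computed by the authors and deposited in 1 table to 2 decimals. Per the labels' protocols, oligo(dT)-selected RNA was made into cDNA, cut with NlaIII and MmeI into short tags and sequenced. Which aligner, counting method, length model and build they used is not given in the sources used here. Tags come from CATG sites, whereas FPKM divides by transcript length, so a ranking of genes by FPKM may be off, and a transcript without such a site could not be measured. Reads of near-identical copies may be split between them. The 3 wild type columns were used. Those of the deletion strains, and 3 further columns that fit no labelled sample, were not used.

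Shares, SDs, CVs and correlations were computed in Python 3.11.15 with pandas 2.3.3 and numpy 2.4.6, on a log2(FPKM + 1) scale where stated, for genes with a mean of at least 1 FPKM. The calculations were tested on simulated data with known shares, spreads and scale factors. For spread, the test used the root mean square of the SD of log2 FPKM, without the added 1, for genes of at least 10 FPKM. The median SD reported here was not tested in this way. A gene entered a list when its Nr description matched the list's words, or when all of its KEGG entries did. The genes named were the 30 highest, the 3 highest of each list (not all are printed), the 10 of highest CV with a mean of at least 10 FPKM, the described genes at 0 and the regulators a list names; further list members were added as examples after their values were seen. The lists and the members were chosen with earlier results of these data known, and the word patterns were trimmed after their matches were seen. The depth in reads is not known, so no counting interval is given. Alternatives tried were leaving out each library, other filters, pseudocounts, scalings and ways to match descriptions. No sequence or coordinate is given, because the identifiers matched no entry of the reference table at hand.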

Additional observations from a re-analysis of the deposited data

How the results depend on the processing

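No paired analysis was possible because no comparison between strains was made. Leaving out each library in turn gave 13.03% to 13.16% of the pool for the highest 10 genes, 37.02% to 37.15% for the highest 100, 274 to 276 genes for 50% of the pool and 116 to 120 genes at 0. The same range was 2.31% to 2.74% for cellulose hydrolysis, and 0.0956 to 0.12 for the median SD of log2(FPKM + 1), which is lower by construction with 2 libraries. Without the highest gene, PDE_09832, the shares were 12.2% for the highest 10, 35.9% for the highest 100, and, added after the data were seen, 40.1% for undescribed genes and 1.65% for structural molecule activity. Without its highest member, a list held 1.63% (cellulose hydrolysis), 0.142% (cellulose monooxygenase), 0.719% (hemicellulose degradation) or 0.997% (fungal wall hydrolysis).

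Words matched in the Nr description alone gave 0.751% for fungal wall hydrolysis and 0.319% for cytosolic ribosomal proteins; KEGG entries alone gave 0.00299% for cellulose monooxygenase and 0.652% for hemicellulose degradation. The plant polysaccharide lists minus the translation lists, an analysis added after the data were seen, came to 0.73 to 1.52 percentage points without 1 library, 4.77 with Nr descriptions alone, -0.20 with KEGG alone and 0.196 without the highest member; the cause was not tested. Genes without Nr description or KEGG entry, whatever their GO terms, held 45.7% of the pool (added after the data were seen). Below 0.1 FPKM in all libraries there were 157 genes, and below 1 FPKM 720. Over the 33 other lists, the share moved by more than its SD in 30 lists with Nr descriptions alone, in 7 with KEGG alone, in 19 with any matching KEGG entry (added after the data were seen) and in 32 without the highest member. Leaving out a library could not show such a move. With 3 libraries, the mean of the remaining ones always lies within the SD of the full mean. Other pseudocounts, filters and scalings moved the median SD of log2 by less than the spread over library pairs. The number of libraries, 3, and the unknown read depth limit every value, most of all for genes of low FPKM.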

Other observations

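Some genes of high level stood beside each other in the numbering of identifiers, a pattern looked for after the data were seen. Whether neighbouring identifiers are neighbouring genes on a chromosome is not given in the sources used here. Of the 103 genes with a mean of at least 1000 FPKM, 15 formed 7 runs of consecutive identifiers, and the rest stood in none. How many runs other sets of genes of this size would form was not counted. The histone genes H4.1 and H3 (PDE_00232 and PDE_00233) made up one run and H2B and H2A (PDE_01489 and PDE_01490) another. PDE_07927, PDE_07928 and PDE_07929 put the acid protease aspergillopepsin next to the family 45 enzyme and Cel7B. PDE_00508 and PDE_00509, both undescribed and at 6249 ± 399 and 12411 ± 936 FPKM, followed endoglucanase PDE_00507 at 511 ± 126. PDE_02102, a putative cellulose binding protein at 1066 ± 55.9 FPKM, followed xylanase B. Across all genes, Pearson's correlation of log2(FPKM + 1) between neighbouring identifiers was 0.15 over 9807 pairs, 0.057 at a distance of 3 and 0.0081 at a distance of 5; it is a description over genes that share libraries.

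One stretch of numbers held high genes with low ones between them. PDE_02118, labelled as salicylate hydroxylase, was read at 152, 179 and 156 FPKM in replicates 1, 2 and 3. PDE_02119 and PDE_02123, both labelled as demethylsterigmatocystin O-methyltransferase, were read at 277, 358 and 348 and at 254, 310 and 276. PDE_02121, labelled as fumitremorgin C monooxygenase, was read at 189, 218 and 216, PDE_02122, with GO labels of an oxidoreductase, at 265, 437 and 364, and the undescribed PDE_02125 at 580, 832 and 665. Replicate 1 was the lowest library for these 6 genes. Between them lay PDE_02120, at 0, 0.61 and 0 FPKM, and PDE_02124, at 1.66, 1.37 and 0.55. After them came PDE_02126, at 4.92, 4.35 and 7.20 FPKM, PDE_02127, labelled as seryl-tRNA synthetase, at 10.5, 6.89 and 6.45, and PDE_02128, labelled as an iron transport multicopper oxidase, at 224, 367 and 350. A second stretch was low throughout: PDE_01075 to PDE_01079, which holds a label of brevianamide F synthase, a peptide synthetase, had means of at most 0.463 FPKM, whereas the next identifier, PDE_01080, formate dehydrogenase, was read at 565, 398 and 203.

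Putative cutinases, which cut the waxy polyester of plant surfaces, comprised 2 high genes and 1 low one. The 3 genes held 0.310% ± 0.060 of the pool, with PDE_07475 at 1074.75, 1414 and 1624 FPKM and PDE_03294 at 890, 991 and 1275; replicate 3 was the highest for both. The third, PDE_04915, was read at 21.7, 16.4 and 22.0, below the median of all genes. The 9 genes described as chitin synthase, by contrast, held 0.0512% ± 0.0068, with a median of 47.1 FPKM and 2 members below 1.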
